A study of Mus musculus with 15 samples.

Results

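Chromosome 8 of the mouse carried a lower RNA level in both cohesin knockout clones of this series, and 58 of its genes were followed here library by library as a readout of that chromosome. The 58 members are broadly expressed genes, listed by symbol, out of 23412 genes counted in each library. They were picked for their place on chromosome 8 and their expression in most cell types, after chromosome 8 had been seen to lie lower in both knockout clones than in wild-type siGLO cells. That difference is therefore a description below and carries no test. All 58 members were present, all lay on chromosome 8, and all passed the filter on low counts, among 14508 genes that did so and 763 of these on chromosome 8.

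Mouse embryonic stem cells (mESCs) tend to gain whole chromosomes in long culture, and a gain of chromosome 8 is among the best known of these changes, since cells with the extra copy outgrow their neighbours. RNA from a chromosome tends to follow its copy number, so broadly expressed genes that share nothing but a chromosome can report on it when many of them are averaged. A culture may also hold a mixture of cells with and without the extra copy. No DNA was measured in these libraries, and copy number itself was not tested. In bulk RNA, fewer cells with a high level and less RNA in every cell cannot be told apart.

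The series compared cells that lack one of the STAG subunits of cohesin, the ring complex that forms DNA loops and holds sister chromatids together. Polyadenylated RNA was sequenced from male v6.5 mESCs in 5 groups of 3 replicates, each transfected with 50 nM siRNA and collected after 48 h. The groups were wild-type cells with siGLO (a non-targeting control), wild-type cells with siStag1 (an siRNA pool against Stag1), Stag1-/- cells with siGLO, Stag2-/- cells with siGLO and Stag2-/- cells with siStag1. Each knockout genotype was 1 clone made by CRISPR/Cas9, with an in-frame deletion within Stag1 or a deletion over several exons of Stag2, and both Stag2-/- groups came from the same clone. Genotype and clone cannot be told apart, because a difference between a clone and the wild-type line may have arisen at cloning. The study describes the replicates of a genotype as biological replicates and as coming from a single clone, and the labels only number them, so p-values measure only the spread between these libraries.

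Counts on genes numbered 14982560 to 19070126 per library. Normalised counts below are counts divided by the effective library size from edgeR's TMM scaling and brought to a common depth, and a gene was called at a Benjamini-Hochberg adjusted p under 0.1 in edgeR's two-sided quasi-likelihood test over all 14508 genes. Stag2 had 663 to 739 normalised counts in the Stag2-/- siGLO libraries and 2329 to 2334 in wild-type siGLO, whereas Stag1 had 1826 to 2368 in Stag1-/- siGLO and 2012 to 2288 in wild-type siGLO. The count of the targeted gene thus did not check the label of the Stag1-/- clone, whose deletion is small and in frame. All 8 mESC markers examined were detected in every library, and they summed to 102010 to 107020 normalised counts in wild-type siGLO, 94798 to 101900 in wild-type siStag1, 83916 to 97037 in Stag1-/- siGLO, 79423 to 92961 in Stag2-/- siGLO and 59130 to 72896 in Stag2-/- siStag1. By this sum each knockout group was below the wild-type group with the same siRNA without overlap. Taken singly, Nanog, Esrrb, Klf4 and Dppa5a were so in each of these comparisons. Pou5f1, Sox2, Zfp42 and Tdgf1 were not, since each overlapped with wild-type in some of them. A list of 6 primitive endoderm markers summed to 2337 to 2680 normalised counts in the 6 wild-type libraries and to 218 to 676 in the 9 knockout libraries, with all 6 detected in every library, and 6 fibroblast markers summed to 347 to 692 with Lum at or near 0. The part of such cells in the results was not tested.

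Along chromosome 8 (mm10, GENCODE M21 positions) the members ran from Insr at chr8:3122061-3279617 to Usp10 at chr8:119910360-119957560. Reads of 9 members may be shared with another gene. Hmgb2 and Aars have 13.8% and 12.2% of their 150-base stretches in transcripts of other genes. Xab2, Bag4, Ddx49, Prdx2, Tnpo2, Rbl2, Polr2c and Aars have at least 10% of their exon bases over exons of another gene, on the opposite strand for all of them except Aars, which overlaps Exosc6 on the same strand. Whether the counting used strand is not given in the sources used here, so the values of these 9 are less certain.

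To follow each library on its own, every member's log2 level was set against its wild-type siGLO mean, and the median over members was taken relative to the median of all other genes. The members' shift was 0.05, −0.02 and −0.04 on the log2 scale in wild-type siGLO replicates 1, 2 and 3, and 0.01, −0.02 and −0.06 in wild-type siStag1. It was −0.15, −0.23 and −0.26 in Stag1-/- siGLO, and −0.16, −0.22 and −0.28 in Stag2-/- siGLO. In Stag2-/- siStag1 it was −0.11, −0.35 and −0.34. All 9 knockout libraries lay below all 6 wild-type libraries. Replicate 1 had the highest member shift in each of the 5 groups, and replicate 1 of Stag2-/- siStag1 stood apart from the other 2 libraries of its group.

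**Figure D1:**
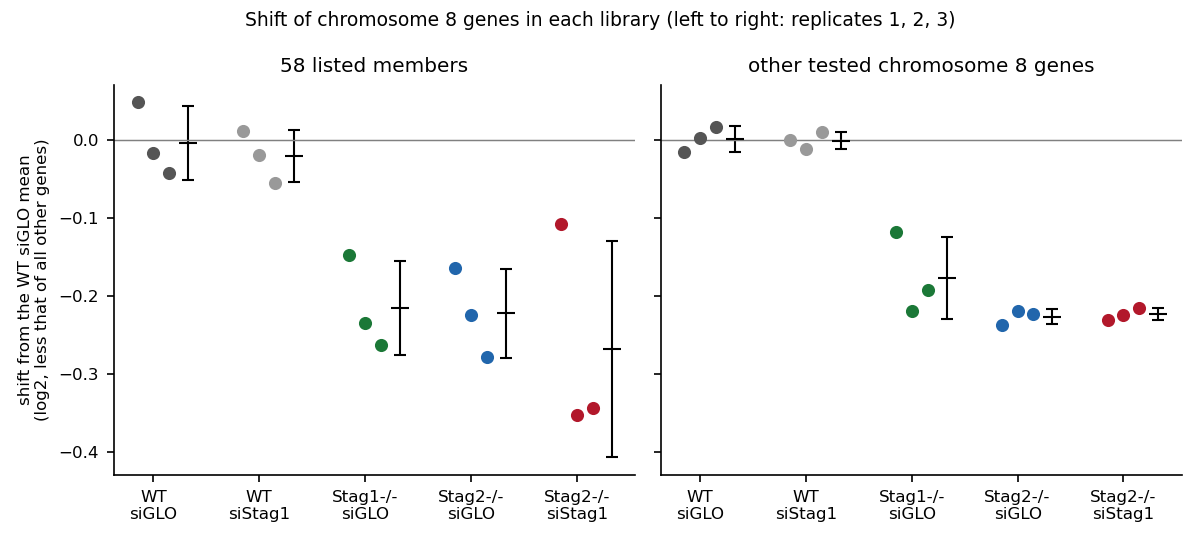
Shift of the 58 members (left) and of the 705 other tested genes of chromosome 8 (right) in each library, on the log2 scale relative to the wild-type siGLO mean and to all other genes. Dots are libraries and bars are group means ± SD (n = 3). All 9 knockout libraries sit below the wild-type libraries in both panels, from −0.11 to −0.35 for the members.

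The other 705 tested genes of chromosome 8, which are not on the list, had a smaller SD of the shift than the members in each of the 5 groups. Their shift ran from −0.02 to 0.02 in the 6 wild-type libraries, from −0.12 to −0.22 in Stag1-/- siGLO and from −0.22 to −0.24 in the 6 libraries of the Stag2-/- clone. Replicate 1 of Stag2-/- siStag1, at −0.23 for these genes, did not stand apart from its group as it did for the members. Among those with the highest counts, Rpl13 fell by 0.35 (SE 0.08) and Calr by 0.23 (SE 0.08) in Stag2-/- siStag1 against wild-type siStag1. Chromosome 8 as a whole took 5.37% ± 0.02 of the counts on genes in wild-type siGLO and 5.36% ± 0.02 in wild-type siStag1 (SD, n = 3). It took 4.61% ± 0.10 in Stag1-/- siGLO, 4.52% ± 0.07 in Stag2-/- siGLO and 4.52% ± 0.08 in Stag2-/- siStag1 (SD, n = 3). The members alone held 1.11% ± 0.04 of the counts in wild-type siGLO and 0.96% ± 0.03 in Stag1-/- siGLO (SD, n = 3).

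The choice of members rests on both siGLO knockout contrasts, whose values follow as a description. In Stag1-/- siGLO against wild-type siGLO, 54 of the 58 members were below 0 and their median log2 fold change was −0.20, or 87.3% of the control level. At the threshold 22 members (37.9%) were lower and 1 was higher, where 9.93% of all genes tested were lower and 10.1% higher. The libraries of both groups did not overlap, in the lower direction, at 27 members (46.6%) and at 15.9% of all genes. Without replicate 1 or without replicate 2 of wild-type siGLO, 14 members were lower, where 7.59% and 6.56% of all genes were lower in those fits. In Stag2-/- siGLO against wild-type siGLO the median was −0.19 (87.6%), with 51 members below 0. Here 21 members (36.2%) were lower and 1 was higher, where 14.4% of all genes were lower and 13.9% higher. The groups did not overlap at 30 members (51.7%) and 18.5% of all genes in the lower direction. The 1 higher was Arglu1, and no member was called higher when scaling factors came only from genes off chromosome 8, without the expression filter, or in a fit of the 6 libraries compared. The same held without wild-type siGLO replicate 2 or 3 and without Stag2-/- siGLO replicate 1 or 3. Both contrasts share the wild-type siGLO libraries. In Stag2-/- siStag1 against wild-type siGLO, which uses the same control, the median was −0.26 (83.8%), and 31 members were lower and 1 higher where 21.3% of all genes were lower and 22.6% higher.

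For scale, RNA in proportion to a drop from 3 copies to 2 would be 66.7% of the control, a log2 difference of −0.58. In each siGLO knockout, 2 of the 58 members lay below that value. Between it and 0 lay 52 members in Stag1-/- siGLO and 49 in Stag2-/- siGLO. Among all other genes tested, the median was −0.01 in Stag1-/- and 0.01 in Stag2-/- siGLO. In Stag1-/- siGLO the SD of the log2 fold change was 0.18 over members and 0.64 over all other genes. In Stag2-/- siGLO it was 0.20 and 0.67. Over the 705 other tested genes of chromosome 8 it was 0.59 in Stag1-/- siGLO and 0.63 in Stag2-/- siGLO. These spreads are not matched for expression level, since most members had high counts. The members ran from −0.65 to 0.40 in Stag1-/- siGLO and from −0.80 to 0.23 in Stag2-/- siGLO.

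**Figure D2:**
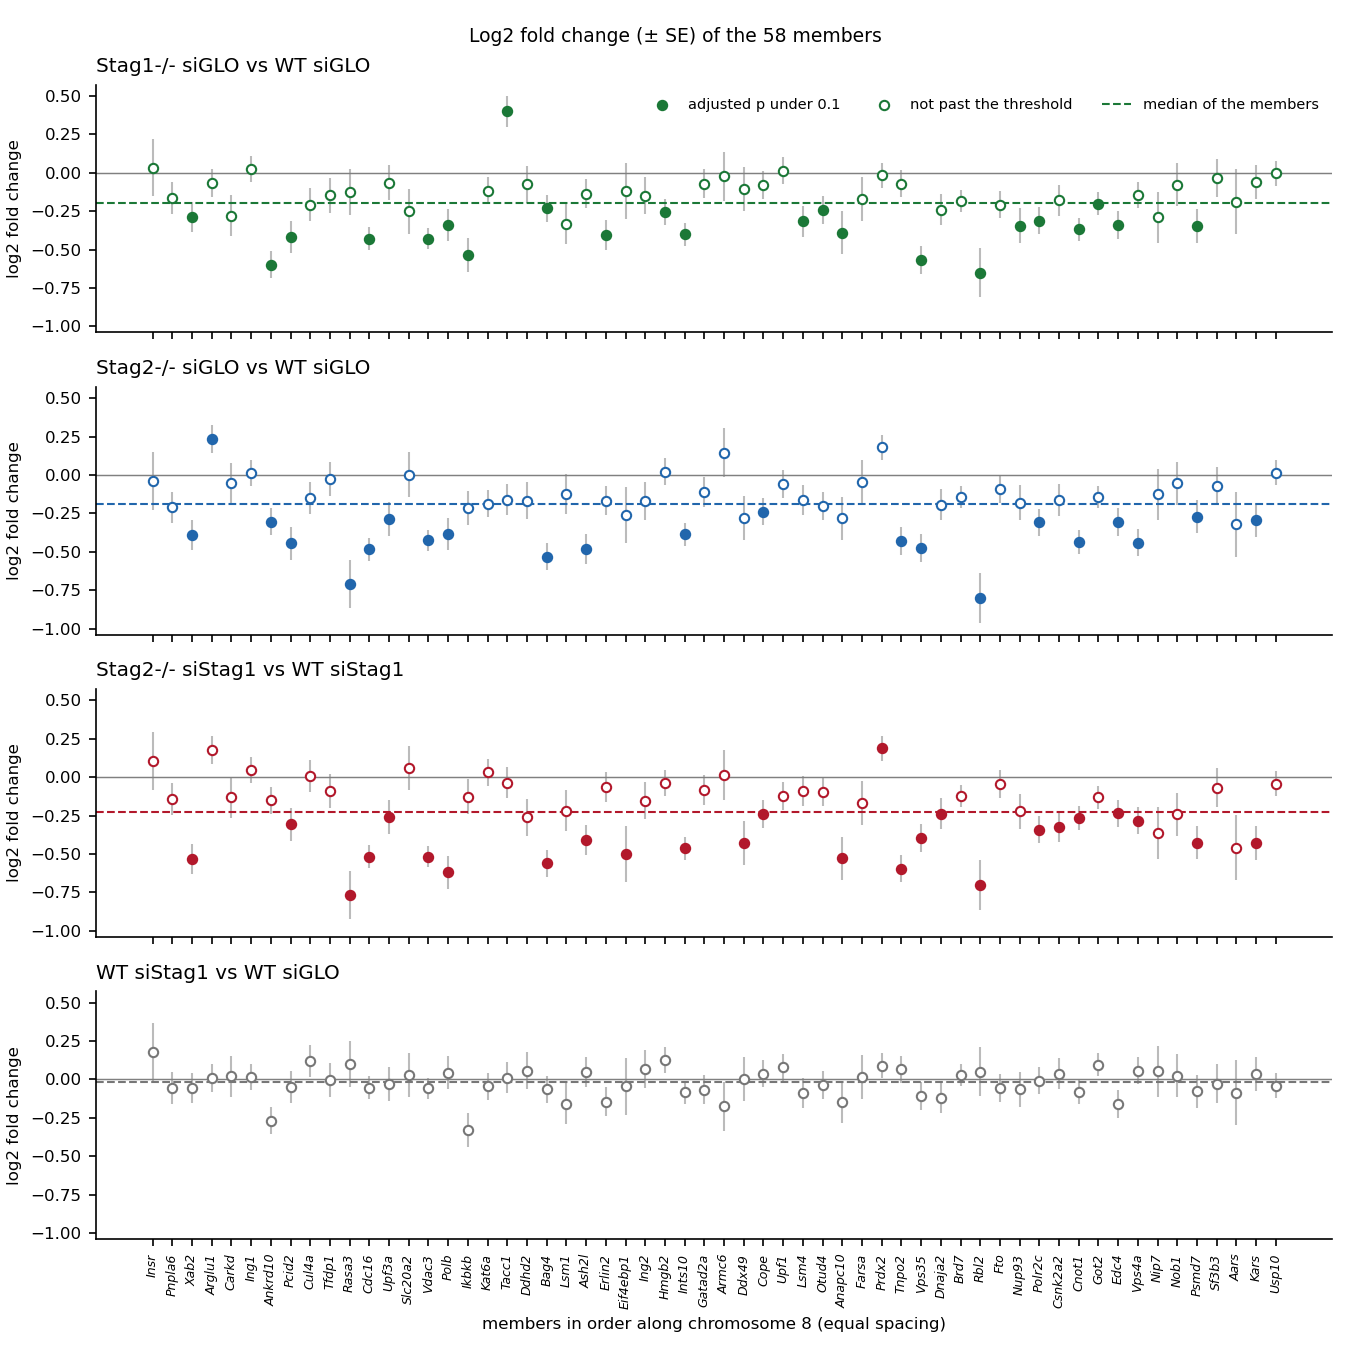
Log2 fold change (y axis, ± SE) of the 58 members in their order along chromosome 8 (x axis, equal spacing) in 4 contrasts. Filled dots passed an adjusted p of 0.1 and dashed lines are the members' medians, which lie near −0.2 in the 3 contrasts of a knockout clone and near 0 in wild-type siStag1 against wild-type siGLO.

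Both siStag1 groups, whose 6 libraries enter neither siGLO knockout contrast, allowed the Stag2-/- clone to be compared with wild-type cells again. The clone is the same and results of all libraries were known when the list was made, so this compares the same cell lines in other libraries. The spread was also estimated from all 15 libraries in 1 fit. Calls between the siStag1 groups are therefore not an independent test of the list. Stag1 was not depleted equally, with 629 to 781 normalised counts in Stag2-/- siStag1 and 353 to 517 in wild-type siStag1 (log2 fold change 0.65, adjusted p = 0.0023 by edgeR), and its part in the result was not tested. In Stag2-/- siStag1 against wild-type siStag1 the members' median log2 fold change was −0.23, or 85.3% of the control level. By edgeR's test 25 members (43.1%) fell and 1 rose, where 18.1% of all genes tested fell and 19.4% rose. Among the 705 other genes of chromosome 8 the median was −0.22 and 37.9% fell, whereas on other chromosomes the median was 0.02 and 17.0% fell. The libraries of the 2 groups did not overlap at 28 members in the lower direction, 48.3% of the list, where 22.3% of all genes did so. Of the 21 members called lower in Stag2-/- siGLO against wild-type siGLO, 20 were also called here (95.2%), beside 75.9% of the 2088 genes called lower there over all genes tested and 81.5% of the 233 on chromosome 8 outside the list. With each library left out in turn, 18 to 30 members were called lower, and the median ranged from −0.29 without replicate 1 of Stag2-/- siStag1 to −0.18 without its replicate 3.

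**Figure D3:**
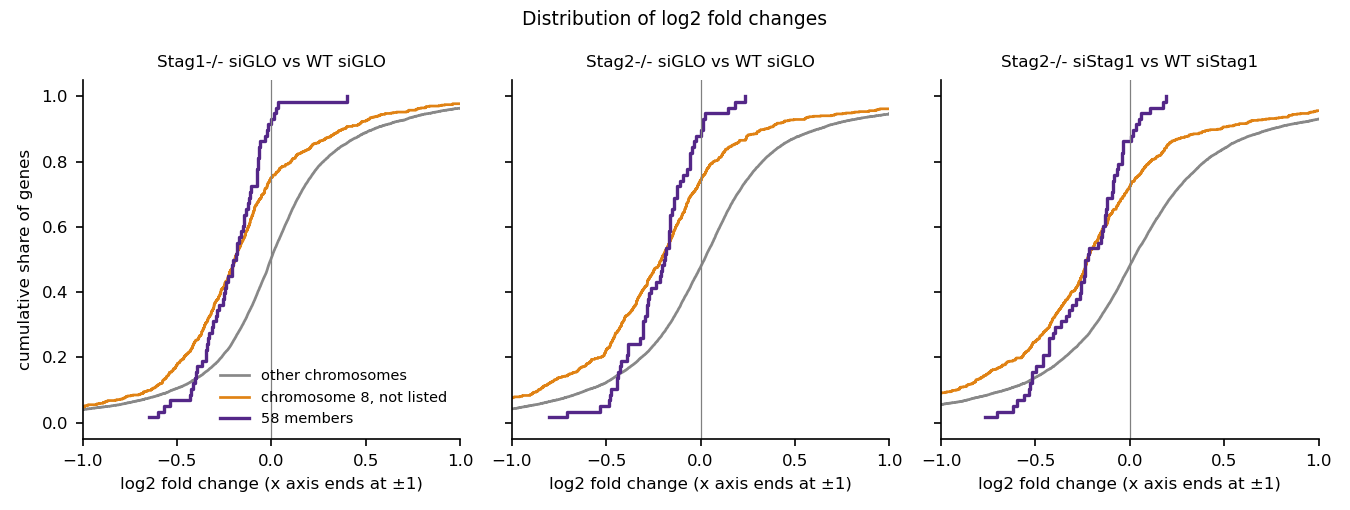
Cumulative share of genes (y axis) by log2 fold change (x axis, cut at ±1) for the 58 members, the 705 other tested genes of chromosome 8 and the genes of other chromosomes in 3 contrasts. Both chromosome 8 curves lie to the left of the curve of other chromosomes around 0, and the members' curve is the steepest.

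When Stag1 was depleted by siRNA in wild-type cells, few genes of any chromosome passed the threshold, and no member did. In wild-type siStag1 against wild-type siGLO, Stag1 itself was at 353 to 517 normalised counts against 2012 to 2288. The members' median log2 fold change was −0.02, and edgeR called 0 of 58, where 0.145% of all genes were lower and 0.103% higher. Beside shares this small, 0 of 58 does not set the members apart. At an unadjusted p under 0.05 by edgeR there were 2 of 58 members, beside 922 of 14508 genes tested. DESeq2 called 0 members, where it called 0.545% of all genes lower and 0.358% higher. The largest differences among the members were those of Ikbkb (a kinase that activates NF-kappaB) at −0.33 (SE 0.11) and of Ankrd10 at −0.27 (SE 0.09), neither past the threshold (adjusted p = 0.498 and 0.451 from edgeR).

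Within the Stag2-/- clone, siStag1 against siGLO gave a members' median of −0.04, with 0 members called by edgeR, where 3.39% of all genes were lower and 2.98% higher. At an unadjusted p under 0.05 by edgeR there were 6 of 58 members, beside 2423 of 14508 genes tested. DESeq2 called 0 members, where it called 4.40% of all genes lower and 3.94% higher. The median was −0.01 without replicate 1 of Stag2-/- siGLO and −0.11 without replicate 1 of Stag2-/- siStag1. In the latter fit 2 members were lower and 2 higher, where 4.90% of all genes were lower and 5.19% higher. An interaction term asks whether siStag1 acted differently in Stag2-/- and wild-type cells. By edgeR it was called for 0 members, where 0.138% of all genes were called lower and 0.0207% higher. By DESeq2 it was called for 0 members, where 0.531% of all genes were called lower and 0.172% higher. Such small shares leave 0 of 58 near that of all genes. No member reached an unadjusted p under 0.05 by edgeR for the interaction, beside 842 of 14508 genes tested, and the members' median was −0.03.

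Members with roles in RNA processing and decay made up the largest group, with 15 genes. Counts by role are small and stand beside the 18.1% of all genes that fell between the siStag1 groups. In Stag2-/- siStag1 against wild-type siStag1, 8 of the 15 fell and 0 rose, with a median of −0.26. Cnot1 (chr8:95719451-95807464), the scaffold of the CCR4-NOT deadenylase that shortens poly(A) tails, had 17570, 16606 and 16385 normalised counts in wild-type siGLO and 16909, 15812 and 15113 in wild-type siStag1. It had 13076, 14268 and 11836 in Stag1-/- siGLO, 12135, 12938 and 12264 in Stag2-/- siGLO and 13136, 13057 and 13623 in Stag2-/- siStag1. The 9 knockout libraries were all below the 6 wild-type libraries. Between the siStag1 groups Cnot1 fell by 0.26 in log2 units (SE 0.08, adjusted p = 0.0161 from edgeR), to 83.2% of the wild-type level.

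Sf3b3 (chr8:110810239-110846787), another of the highest counts in this role, encodes a subunit of the SF3B splicing complex. It had 14999, 11965 and 11015 normalised counts in wild-type siGLO and 13995, 12181 and 10901 in Stag1-/- siGLO. The Stag2-/- clone had 12814, 12319 and 10996 with siGLO and 12913, 11390 and 11293 with siStag1, against 14207, 12321 and 10771 in wild-type siStag1. All 5 groups overlapped, and the difference between the siStag1 groups was −0.07 (SE 0.13, adjusted p = 0.729 from edgeR).

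Among the other members of this role, Xab2 (a splicing and repair factor) fell by 0.53 in Stag2-/- siStag1 against wild-type siStag1, Ints10 (an Integrator subunit) by 0.46 and Ddx49 (an RNA helicase) by 0.43. Polr2c, which encodes a shared core subunit of RNA polymerase II, fell by 0.34. Pcid2 (mRNA export), Upf3a (nonsense-mediated decay) and Edc4 (a scaffold for decapping) fell by 0.31, 0.26 and 0.24. Upf1, the central helicase of nonsense-mediated decay, was at −0.12, and Lsm1 and Lsm4 of the LSM rings at −0.22 and −0.09, none past the threshold. The ribosome assembly factors Nip7 and Nob1 were at −0.36 and −0.24, also short of it. With single libraries left out, the call of Ddx49 was lost without wild-type siStag1 replicate 1 or Stag2-/- siStag1 replicate 3 (−0.35 and −0.33). That of Pcid2 was lost without wild-type siStag1 replicate 1 or Stag2-/- siStag1 replicate 2 or 3 (−0.27 to −0.22), and that of Edc4 without replicate 1 or 2 of wild-type siStag1 or replicate 2 or 3 of Stag2-/- siStag1 (−0.24 to −0.18). Upf3a kept its call only without Stag2-/- siStag1 replicate 1 (−0.34).

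Arglu1 (chr8:8665075-8690521), a splicing coregulator, was 1 of the few members on the other side of 0. Its normalised counts were 1694, 1621 and 1595 in wild-type siGLO and 1554, 1411 and 1722 in Stag1-/- siGLO. The Stag2-/- clone had 2139, 1780 and 1857 with siGLO and 2001, 1796 and 1795 with siStag1, all 6 above the 6 wild-type libraries, where wild-type siStag1 had 1654, 1557 and 1734. The difference between the siStag1 groups was 0.18 (SE 0.09, adjusted p = 0.161 from edgeR).

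Of the 11 members that act in chromatin and transcription, 2 fell and 0 rose in Stag2-/- siStag1 against wild-type siStag1, a share near the 18.1% of all genes, and the median was −0.09. Ash2l (chr8:25815996-25847694), a core subunit of the MLL and SET1 histone methyltransferases, had 8172, 7470 and 7433 normalised counts in wild-type siGLO and 8052, 7945 and 7838 in wild-type siStag1. It had 7383, 7195 and 6436 in Stag1-/- siGLO, then 6231, 5135 and 5163 in Stag2-/- siGLO and 6810, 5705 and 5446 in Stag2-/- siStag1. All 9 knockout libraries were below all 6 wild-type libraries, and the lowest 2 were both Stag2-/- siGLO. Ash2l fell by 0.41 between the siStag1 groups (SE 0.10, adjusted p = 0.00481 from edgeR).

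Hmgb2 (chr8:57511907-57515999), a DNA-bending chromatin protein, had 15992, 15322 and 14109 normalised counts in wild-type siGLO and 11621, 12033 and 14429 in Stag1-/- siGLO. It had 16414, 14649 and 15073 in Stag2-/- siGLO, 15726, 16625 and 17284 in wild-type siStag1 and 16289, 16466 and 15577 in Stag2-/- siStag1. Only Stag1-/- siGLO replicates 1 and 2 stood below the other 13 libraries, and between the siStag1 groups the difference was −0.04 (SE 0.09, adjusted p = 0.776 from edgeR).

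Rbl2 (chr8:91070057-91123844), which encodes the pocket protein p130 that represses E2F targets in resting cells, was the lowest member in both siGLO knockouts. Its normalised counts were 194, 212 and 275 in wild-type siGLO and 235, 227 and 243 in wild-type siStag1. They were 117, 152 and 165 in Stag1-/- siGLO, 127, 125 and 138 in Stag2-/- siGLO and 135, 163 and 136 in Stag2-/- siStag1, so all 9 knockout libraries were below all 6 wild-type libraries. Rbl2 fell by 0.70 between the siStag1 groups (SE 0.16, adjusted p = 0.00409 from edgeR).

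Ankrd10 (chr8:11611583-11635757) had 2220, 2390 and 2558 normalised counts in wild-type siGLO, 1376, 1623 and 1736 in Stag1-/- siGLO and 1968, 1819 and 2018 in Stag2-/- siGLO. With siStag1 it had 1938, 2065 and 1945 in wild-type and 1789, 1762 and 1814 in Stag2-/- cells. With siGLO, both knockout groups lay below wild-type without overlap. Between the siStag1 groups, which did not overlap either, the difference was −0.15 (SE 0.09, adjusted p = 0.221 from edgeR).

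Ing1 (chr8:11555571-11563251), a reader of histone H3 methylation, had 1818, 1655 and 1556 normalised counts in wild-type siGLO and 1830, 1686 and 1597 in Stag1-/- siGLO. It had 1676, 1775 and 1625 in Stag2-/- siGLO, 1742, 1776 and 1571 in wild-type siStag1 and 1862, 1750 and 1653 in Stag2-/- siStag1, with all 5 groups overlapping. Of the others, Tfdp1 (the DP1 partner of E2F factors), Kat6a (a histone acetyltransferase), Ing2, Gatad2a (a NuRD subunit), Brd7 (a subunit of PBAF) and Fto (an RNA demethylase) ranged from −0.15 to 0.03 between the siStag1 groups, none past the threshold.

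In ubiquitin and protein turnover, 3 of 7 members fell between the siStag1 groups and 0 rose, and the median was −0.10. Subunits of the anaphase-promoting complex (APC/C), the ubiquitin ligase that ends mitosis, were among them, since Anapc10 fell by 0.53 (SE 0.14) and Cdc16 by 0.52 (SE 0.08). Psmd7 (chr8:107580381-107588464), a lid subunit of the proteasome, had 6237, 5815 and 4730 normalised counts in wild-type siGLO and 5605, 5363 and 4950 in wild-type siStag1. It had 4720, 4370 and 4112 in Stag1-/- siGLO, 4930, 4770 and 4201 in Stag2-/- siGLO and 4430, 3831 and 3584 in Stag2-/- siStag1. Between the siStag1 groups, which did not overlap, Psmd7 fell by 0.43 (SE 0.11, adjusted p = 0.00747 from edgeR).

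Otud4 (chr8:79639618-79677724), a deubiquitinase, had 5968, 5902 and 5335 normalised counts in wild-type siGLO, 4466, 5298 and 4772 in Stag1-/- siGLO and 5133, 5226 and 4599 in Stag2-/- siGLO. It had 5876, 5824 and 5071 in wild-type siStag1 and 5709, 5010 and 4981 in Stag2-/- siStag1, a difference of −0.10 (SE 0.09, adjusted p = 0.468 from edgeR) with overlapping groups. Usp10, another deubiquitinase and the last member along the chromosome, was near 0 in each contrast, at −0.00 in Stag1-/- siGLO, 0.01 in Stag2-/- siGLO and −0.04 between the siStag1 groups. Cul4a, a cullin scaffold, was at 0.01 and Erlin2, which acts in the turnover of endoplasmic reticulum proteins, at −0.06 between the siStag1 groups, neither past the threshold.

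**Figure D4:**
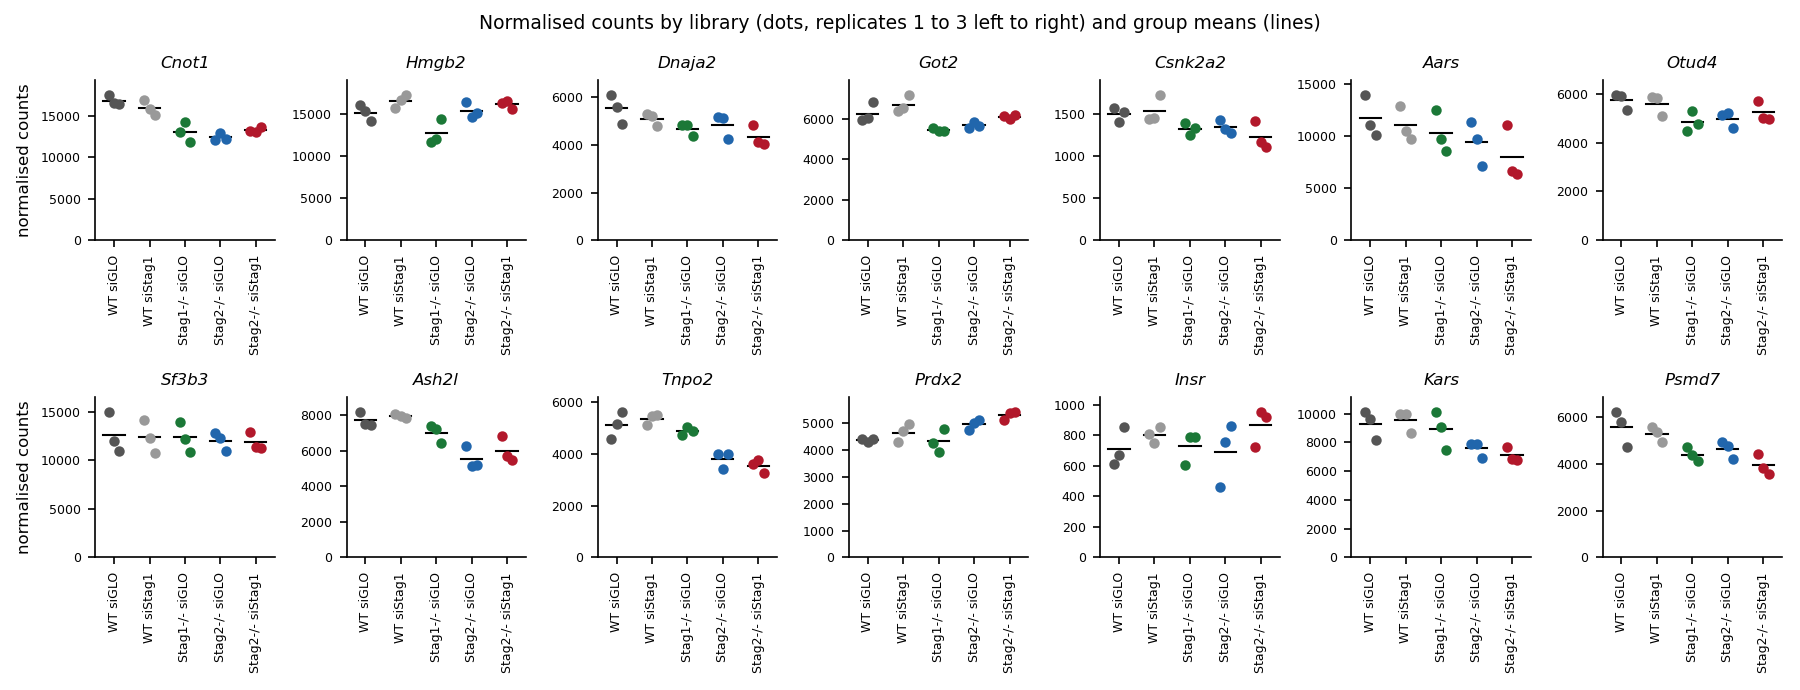
Normalised counts (y axis, from 0) of the 2 members with the highest counts in each of 7 roles, in the 15 libraries by group (x axis). Dots are replicates 1 to 3 from left to right and lines are group means (n = 3). Cnot1 and Ash2l are below the wild-type libraries in all 9 knockout libraries and Tnpo2 in the 6 libraries of the Stag2-/- clone, while Sf3b3 and Insr overlap across the groups.

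Membrane traffic, transport and chaperones held 8 members, of which 6 fell and 0 rose between the siStag1 groups (median −0.26). Tnpo2 (chr8:85036915-85057583), a nuclear import receptor, had 4581, 5129 and 5609 normalised counts in wild-type siGLO and 4702, 5007 and 4871 in Stag1-/- siGLO. It had 3974, 3422 and 3978 in Stag2-/- siGLO and 3583, 3757 and 3263 in Stag2-/- siStag1, against 5119, 5435 and 5472 in wild-type siStag1. The 6 libraries of the Stag2-/- clone were below the other 9. Tnpo2 fell by 0.60 between the siStag1 groups (SE 0.09, adjusted p = 0.00012 from edgeR).

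Vps35 (chr8:85260392-85299802), the core of the retromer that recycles membrane proteins from endosomes, had 5232, 5124 and 4831 normalised counts in wild-type siGLO and 4860, 4698 and 4514 in wild-type siStag1. It had 2962, 3823 and 3447 in Stag1-/- siGLO, 3448, 3778 and 3698 in Stag2-/- siGLO and 3236, 3690 and 3749 in Stag2-/- siStag1, all below the wild-type libraries. Vps35 fell by 0.40 between the siStag1 groups (SE 0.09, adjusted p = 0.00375 from edgeR).

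Bag4 (chr8:25764538-25785287), a cochaperone of HSP70, had 2683, 2528 and 2466 normalised counts in wild-type siGLO and 2574, 2482 and 2296 in wild-type siStag1. Stag1-/- siGLO had 2032, 2466 and 2049, whereas the Stag2-/- clone had 1740, 1838 and 1729 with siGLO and 1708, 1743 and 1531 with siStag1. The Stag2-/- libraries were below all others, and Bag4 fell by 0.56 between the siStag1 groups (SE 0.09, adjusted p = 0.000198 from edgeR).

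Dnaja2 (chr8:85537633-85555344), an HSP40 chaperone, had 6109, 5597 and 4891 normalised counts in wild-type siGLO, 4828, 4852 and 4367 in Stag1-/- siGLO and 5161, 5110 and 4255 in Stag2-/- siGLO. It had 5291, 5197 and 4812 in wild-type siStag1 and 4821, 4118 and 4047 in Stag2-/- siStag1, where replicate 1 reached into the wild-type range. The fall between the siStag1 groups was by 0.24 (SE 0.10, adjusted p = 0.09 from edgeR). The call was lost without replicate 1 or 2 of wild-type siStag1 and without replicate 2 or 3 of Stag2-/- siStag1 (adjusted p = 0.195 to 0.255 from edgeR). Cope (a COPI coat subunit) and Vps4a (an ESCRT ATPase) fell by 0.24 and 0.28, and Nup93 of the nuclear pore was at −0.22, short of the threshold. The call of Cope was lost without replicate 1 or 3 of wild-type siStag1 or replicate 1 or 2 of Stag2-/- siStag1 (−0.24 to −0.19).

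Tacc1 (chr8:25154552-25256588), a coiled-coil protein of centrosomes and microtubules, was the 1 member higher in Stag1-/- siGLO. It had 1394, 1440 and 1507 normalised counts in wild-type siGLO and 2032, 2114 and 1584 in Stag1-/- siGLO, where all 3 libraries were above the control. It had 1291, 1325 and 1267 in Stag2-/- siGLO, 1608, 1409 and 1361 in wild-type siStag1 and 1443, 1340 and 1486 in Stag2-/- siStag1, a difference of −0.04 between the last 2 groups.

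In metabolism, repair and mitochondria, 2 of 8 members fell and 1 rose between the siStag1 groups (median −0.14). Polb (chr8:22628126-22653435), the DNA polymerase of base excision repair, had 429, 439 and 486 normalised counts in wild-type siGLO and 444, 469 and 484 in wild-type siStag1. It had 353, 354 and 363 in Stag1-/- siGLO, 331, 365 and 341 in Stag2-/- siGLO and 342, 295 and 272 in Stag2-/- siStag1, with all 9 knockout libraries below the wild-type libraries. Polb fell by 0.62 between the siStag1 groups (SE 0.11, adjusted p = 0.000454 from edgeR), and Vdac3, a channel of the outer mitochondrial membrane, by 0.52 (SE 0.07).

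Prdx2 (chr8:84969587-84974834), a peroxiredoxin that removes peroxide, was the 1 member that rose. It had 4428, 4312 and 4404 normalised counts in wild-type siGLO, 4282, 3927 and 4780 in Stag1-/- siGLO and 4739, 5015 and 5143 in Stag2-/- siGLO. With siStag1 it had 4297, 4718 and 4962 in wild-type and 5112, 5392 and 5433 in Stag2-/- cells. The rise was 0.19 in log2 units (SE 0.08, adjusted p = 0.0897 from edgeR), and it fell short of the threshold when scaling factors came only from genes off chromosome 8 (adjusted p = 0.147 from edgeR, with 0.031 to 0.303 over all alternatives). The call was also lost without replicate 1 or 2 of wild-type siStag1 and without replicate 2 or 3 of Stag2-/- siStag1 (0.13 to 0.20).

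Got2 (chr8:95864134-95888547), the mitochondrial aspartate aminotransferase, had 5934, 6025 and 6824 normalised counts in wild-type siGLO, 5561, 5382 and 5399 in Stag1-/- siGLO and 5563, 5821 and 5641 in Stag2-/- siGLO. It had 6366, 6527 and 7202 in wild-type siStag1 and 6164, 6010 and 6171 in Stag2-/- siStag1. These siStag1 groups did not overlap, yet the difference of −0.13 (SE 0.07, adjusted p = 0.193 from edgeR) was short of the threshold. Pnpla6 and Ddhd2 (phospholipases), Carkd (repair of hydrated NADH) and Slc20a2 (a phosphate transporter) ranged from −0.26 to 0.06, none past it.

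All 4 members with roles in translation were below 0 between the siStag1 groups, 2 of them called, with a median of −0.44. Kars (chr8:111993443-112011323), the lysyl-tRNA synthetase, had 10112, 9608 and 8192 normalised counts in wild-type siGLO and 10130, 9099 and 7504 in Stag1-/- siGLO. It had 7891, 7921 and 6952 in Stag2-/- siGLO, 9991, 9982 and 8685 in wild-type siStag1 and 7716, 6867 and 6752 in Stag2-/- siStag1. All 6 libraries of the Stag2-/- clone were below the 6 wild-type libraries, and Kars fell by 0.43 between the siStag1 groups (SE 0.11, adjusted p = 0.00872 from edgeR).

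Aars (chr8:111033144-111057664), the alanyl-tRNA synthetase, varied more between replicates. It had 13963, 11060 and 10083 normalised counts in wild-type siGLO, 12527, 9738 and 8522 in Stag1-/- siGLO and 11286, 9678 and 7158 in Stag2-/- siGLO. It had 12873, 10448 and 9726 in wild-type siStag1 and 11058, 6630 and 6367 in Stag2-/- siStag1, and replicate 1 was the highest library in all 5 groups. The difference between the siStag1 groups was −0.46 (SE 0.21, adjusted p = 0.116 from edgeR). Without replicate 1 of Stag2-/- siStag1 it was −0.76 (adjusted p = 0.0067 from edgeR, with 0.00028 to 0.347 over all alternatives). Eif4ebp1, a repressor of cap-dependent initiation, fell by 0.50 (SE 0.18), a call lost without wild-type siStag1 replicate 1 or Stag2-/- siStag1 replicate 2 or 3 (−0.46 to −0.36). Farsa, the alpha subunit of phenylalanyl-tRNA synthetase, was at −0.17, short of the threshold.

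Of the 5 signalling and other members, 2 fell between the siStag1 groups and 0 rose. Rasa3 (chr8:13566948-13677603), a GTPase-activating protein that switches off Ras-family proteins, had 340, 350 and 377 normalised counts in wild-type siGLO and 382, 329 and 269 in Stag1-/- siGLO. It had 183, 202 and 268 in Stag2-/- siGLO and 231, 229 and 212 in Stag2-/- siStag1, against 425, 354 and 365 in wild-type siStag1. Both Stag2-/- groups were below all wild-type libraries, while the Stag1-/- libraries overlapped with wild-type. Rasa3 had the lowest value of the list between the siStag1 groups, where it fell by 0.77 (SE 0.15, adjusted p = 0.00147 from edgeR).

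Csnk2a2 (chr8:95446096-95490039), a catalytic subunit of casein kinase 2, had 1570, 1406 and 1522 normalised counts in wild-type siGLO, 1391, 1253 and 1328 in Stag1-/- siGLO and 1428, 1315 and 1274 in Stag2-/- siGLO. It had 1440, 1445 and 1727 in wild-type siStag1 and 1413, 1167 and 1108 in Stag2-/- siStag1, and fell by 0.32 between them (SE 0.10, adjusted p = 0.0254 from edgeR). The groups did not overlap, but the call was lost without replicate 3 of either group (−0.24 without that of wild-type siStag1 and −0.25 without that of Stag2-/- siStag1). Ikbkb was at −0.13 in that contrast (SE 0.11), short of the threshold.

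Insr (chr8:3122061-3279617), the insulin receptor, had 611, 669 and 853 normalised counts in wild-type siGLO, 608, 788 and 788 in Stag1-/- siGLO and 463, 755 and 860 in Stag2-/- siGLO. It had 810, 752 and 855 in wild-type siStag1 and 722, 955 and 923 in Stag2-/- siStag1, with replicate 1 low in 4 of the 5 groups and all groups overlapping. Armc6 (chr8:70220172-70234466) had 413, 357 and 280 in wild-type siGLO, 394, 327 and 314 in Stag1-/- siGLO and 446, 376 and 338 in Stag2-/- siGLO. It had 365, 284 and 282 in wild-type siStag1 and 340, 286 and 313 in Stag2-/- siStag1. Neither differed between the siStag1 groups past the threshold, with values of 0.11 (SE 0.19) and 0.02 (SE 0.16).

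Set against each other, Stag1-/- siGLO and Stag2-/- siGLO gave a members' median log2 difference of −0.01 (Stag1-/- relative to Stag2-/-). In this contrast 5 members were lower and 6 higher at the threshold, where 12.9% of all genes were lower and 12.7% higher. The 6 higher in Stag1-/- cells were Tacc1 at 0.56, Rasa3 at 0.59, Tnpo2 at 0.36, Ash2l at 0.35, Bag4 at 0.30 and Vps4a at 0.30. The 5 lower were Ikbkb at −0.32, Arglu1 at −0.30, Ankrd10 at −0.29, Hmgb2 at −0.28 and Erlin2 at −0.24. The number lower ranged from 1 to 5 with a library left out, with 1 left without Stag1-/- siGLO replicate 2 or without Stag2-/- siGLO replicate 1 and 3 without Stag1-/- siGLO replicate 1. Fitted to the 6 libraries compared alone, 0 members were lower and 5 higher.

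The lower level ran along the whole chromosome. In each of the 13 windows of 10 Mb, the median log2 fold change over all tested genes was below 0 in Stag1-/- siGLO (−0.40 to −0.12), in Stag2-/- siGLO (−0.37 to −0.07) and between the siStag1 groups (−0.28 to −0.09). In wild-type siStag1 against wild-type siGLO the windows ran from −0.06 to 0.05. The windows held 12 to 118 tested genes, and the −0.40 was in the window of 12, without which the lowest in Stag1-/- siGLO was −0.34. Members fell in 11 of the 13 windows, so 30 to 40 Mb and 120 Mb onwards were seen through other genes only. Those 2 windows had medians of −0.23 and −0.23 between the siStag1 groups, over 28 and 93 genes.

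On the other 18 autosomes the chromosome medians stayed between −0.05 and 0.04 in Stag1-/- siGLO, between −0.04 and 0.07 in Stag2-/- siGLO, and between −0.04 and 0.08 between the siStag1 groups. Chromosome 8 had −0.19, −0.21 and −0.22. Chromosome X was at −0.05 in Stag1-/- siGLO and at 0.12 in both contrasts of the Stag2-/- clone. Chromosome 8 held 5.26% of the genes tested, 14.4% of the genes called lower in Stag1-/- siGLO and 12.2% of those in Stag2-/- siGLO. Between the siStag1 groups it held 11.1% of the genes that fell and 2.28% of those that rose.

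**Figure D5:**
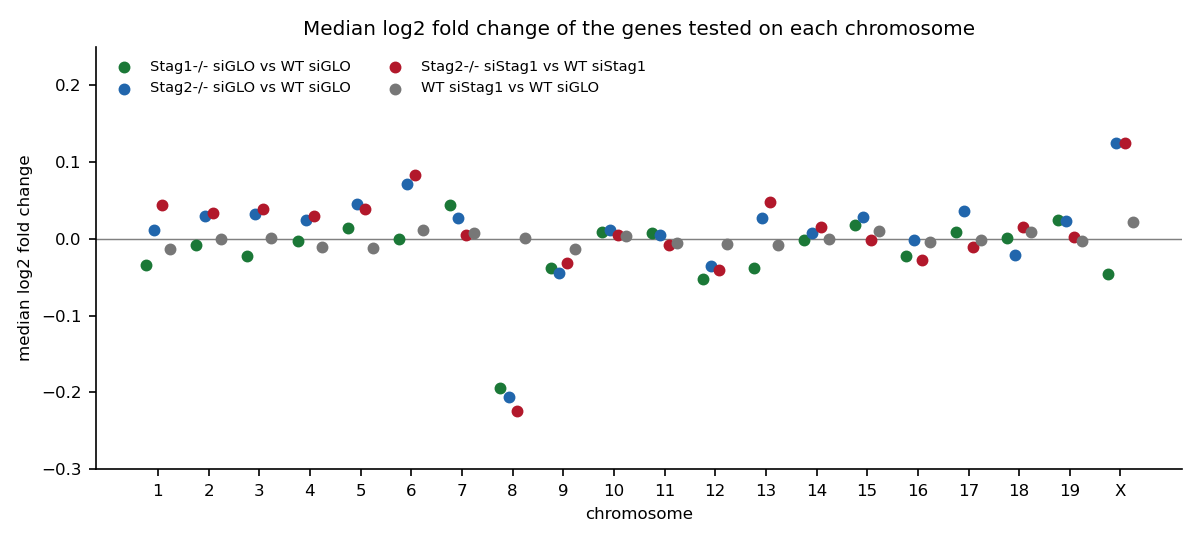
Median log2 fold change (y axis) of the tested genes on each autosome and on chromosome X (x axis) in 4 contrasts. Chromosome 8 lies near −0.2 in the 3 contrasts of a knockout clone and at 0.00 in wild-type siStag1 against wild-type siGLO, while the other autosomes stay between −0.05 and 0.08.

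The chromosome 8 median was below 0 at each level of expression. With all tested genes split into 4 equal bins by mean count, other chromosome 8 genes had medians of −0.19, −0.19, −0.24 and −0.23 between the siStag1 groups, from the lowest bin to the highest. Genes of other chromosomes in the same bins had 0.07, 0.02, 0.01 and 0.00. The share called lower was larger at higher levels, from 20.8% to 48.5% of the chromosome 8 genes, beside 13.4%, 18.6%, 18.0% and 18.2% of genes on other chromosomes from the lowest bin to the highest. Of the members, 42 were in the highest bin, 10 in the next, 6 in the third and 0 in the lowest, with medians of −0.19, −0.24 and −0.57 where there were any.

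Many members work in complexes whose other subunits are encoded elsewhere, and 145 such partners in 17 complexes were listed to set beside them. Of these, 138 were in the counts and all 138 were tested, 135 of them off chromosome 8. Between the siStag1 groups 18 of the 135 fell (13.3%) and 23 rose, with a median of −0.02, beside 25 of 58 members that fell with a median of −0.23. Of all genes tested, 18.1% fell and 19.4% rose there. In Stag1-/- siGLO 9 of the 135 were lower and 7 higher (median −0.02), where 9.93% of all genes were lower and 10.1% higher. In Stag2-/- siGLO 9 of the 135 were lower and 29 higher (median 0.02), where 14.4% of all genes were lower and 13.9% higher. By complex, the 10 APC/C partners had a median of 0.14 between the siStag1 groups with 0 lower and 3 higher, whereas the members Cdc16 and Anapc10 fell. The 10 other subunits of the proteasome regulatory particle had −0.04 with 1 lower, beside Psmd7 at −0.43. The 9 CCR4-NOT partners off chromosome 8 had 0.23, with 1 lower and 5 higher, beside Cnot1 at −0.26. The 17 cytosolic tRNA synthetases off chromosome 8 had −0.15 with 3 lower, beside Kars at −0.43, which was called, and Aars at −0.46 and Farsa at −0.17, which were not. Partners called lower were 2 of 5 in the MLL/SET1 core (median −0.19, with 1 higher) beside Ash2l at −0.41, 2 of 7 in the retromer (−0.05, with 1 higher), 2 of 8 in COPI (−0.08) and 2 of 8 in nonsense-mediated decay (−0.06). SF3B, NuRD, Integrator, CUL4-DDB1 and the E2F, DP and pocket proteins had 1 lower each, with 0, 3, 4, 1 and 3 higher. The 11 RNA polymerase II partners had 0.17 with 0 lower and 2 higher, beside Polr2c at −0.34. The partners off chromosome 8 in the NUP93 complex, casein kinase 2 and the LSM rings had no call.

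The other 3 partners lie on chromosome 8 itself. Cnot7, a deadenylase of CCR4-NOT, was at −0.26 between the siStag1 groups (SE 0.10, adjusted p = 0.0521 from edgeR) and was called. E2f4, a partner of the pocket proteins, was at −0.12 (SE 0.13), and Lsm6 of the LSM rings was at −0.02 (SE 0.10), neither of them past the threshold.

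Genes whose level across the 15 libraries was most like the members' shift in each library were looked for among 14450 tested genes off the list. This was a description without a test, since the libraries share groups and depth. Of the 100 most alike, with Pearson's r from 0.86 to 0.96 over 15 libraries, 34 were on chromosome 8, which holds 4.88% of the genes searched, and chromosome 11 came next with 7. The 5 most alike genes off chromosome 8 were Ccbl2 (r = 0.96), Aifm1 (0.95), Klhl12 (0.95), Hus1 (0.95) and Ptpn7 (0.94).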

How the data were processed

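RNA-seq counts of 15 libraries were analysed. Per gene, the authors deposited whole-number counts without normalisation, made from STAR alignments to mm10, and they used DESeq2 on them. The counting tool, annotation and use of strand are not given in the sources used here. Summary lines that name no gene, 19.8% to 23.4% of each file's counts, were left out, and 23412 genes remained. A count of 3 equals 0.157 to 0.200 CPM at these depths. Replicates of a group differed by more than sampling noise, so none was a copy of another.

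Genes were filtered with filterByExpr by group (minimum count 10, minimum total 15), scaled by TMM and tested with edgeR 4.0.16 in R 4.3.3 (glmQLFit and glmQLFTest, all 15 libraries in 1 fit, no replicate block), with Benjamini-Hochberg adjustment over 14508 genes and a threshold of 0.1. SEs are the log2 fold change divided by the square root of F. Library shifts used a prior count of 2. Positions came from GENCODE M21, which held 93.0% of the listed symbols as such, and 1295 more matched through older symbols. DESeq2 1.42.0, other scalings, other filters and omission of single libraries were run as alternatives. Code was tested on simulated data. Figures were drawn with matplotlib 3.10.9.

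The members and all gene lists were chosen with earlier results of these data known. Values in every library are given for the 2 members with the highest counts in each role and for the 3 lowest and 3 highest members of both siGLO knockout contrasts and of the contrast between the siStag1 groups. Beside members, Stag1, Stag2, the 3 highest other chromosome 8 genes, partners on chromosome 8 and the 5 most alike genes elsewhere were to be named, of which 1 is not reported here.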

Additional observations from a re-analysis of the deposited data

How the results depend on the processing

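No called value changed direction under the alternatives run. Medians near 0 crossed it, reaching 0.0029 in wild-type siStag1 against wild-type siGLO, 0.01 between the clones and 0.01 for the interaction, as did the mean shift of the wild-type siGLO libraries and the uncalled values of Armc6, Ing1, Sf3b3 and Tacc1 between the siStag1 groups. Of the values for the whole list (counts of members called and medians), 266 under an alternative stayed with the main value and 13 moved. The count lower in Stag1-/- siGLO against wild-type siGLO ranged from 14 to 18 with a library left out, and the median in Stag2-/- siGLO from −0.24 to −0.17. Between the Stag1-/- and Stag2-/- clones, 3 members were lower at an adjusted p under 0.05, 3 without the expression filter and 0 in a fit of the libraries compared alone, and 1 to 5 with a library left out. In Stag2-/- siStag1 against Stag2-/- siGLO the count lower ranged from 0 to 2 with a library left out. The cause was not tested, except that fewer libraries entered some fits.

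Same-numbered libraries of different groups did not all deviate together. Over 30 such pairs the mean correlation of deviations was 0.21 (−0.05 to 0.63), 24 were above 0.1, and 13 of 15 libraries correlated best with their own number, a hint from the data only. The replicate block also raised the share of all genes called. With it, 32 members were lower and 2 higher in Stag2-/- siGLO against wild-type siGLO (19.6% of all genes lower), 30 and 1 in Stag1-/- siGLO (15.3%), and 30 and 2 between the siStag1 groups (23.1%). It gave 5 lower and 2 higher in Stag2-/- siStag1 against Stag2-/- siGLO (6.91%) and 8 and 8 between the clones (19.2%), and Aars and Arglu1 gained calls between the siStag1 groups.

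Among single genes 478 values stayed on their side of the threshold, 34 lost the call and 6 gained it. The 3 libraries a group limit the precision to the SEs given, and RNA counts carry no measure of DNA.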

Other observations

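Genes of the Y chromosome, outside the comparisons above, differed between the lines. Ddx3y had 40.7 to 64.1 normalised counts in wild-type siGLO, 43.1 to 58.9 in wild-type siStag1 and 21.7 to 60.6 in Stag1-/- siGLO, against 7.54 to 10.6 in Stag2-/- siGLO and 7.28 to 19.2 in Stag2-/- siStag1. Eif2s3y had 29.9 to 41.7 in wild-type siGLO, 54.5 to 64.2 in Stag1-/- siGLO and 5.28 to 6.35 in Stag2-/- siGLO. Over the 4 Y genes tested, the median log2 difference from wild-type siGLO was −2.23 in Stag2-/- siGLO and 0.26 in Stag1-/- siGLO. Ddx3y and Eif2s3y were chosen after their values were seen.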
